A study of Mus musculus with 20 samples.

Results

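The genes described here are 10 cytokine genes of the mouse, taken by name. Il6, Il11 and Lif encode ligands of the IL-6 family, and Il1a, Il1b, Il1rn and Il33 belong to the IL-1 family. Tnf, Csf1 and Tslp complete the set. They are 10 of the 51826 genes in the count table, and all 10 had at least 5 counts in at least 5 libraries, as had 20407 genes in all.

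The counts come from poly-A RNA of primary renal myofibroblasts, grown out of minced kidney pieces of C57BL/6J mice and used at low passage. There were 5 libraries in each of 4 groups: WT cells without treatment, WT cells given TGFβ1, WWP2-/- cells without treatment, and WWP2-/- cells given TGFβ1. WWP2 is an E3 ubiquitin ligase. The WWP2-/- mice are homozygous, and the study reports that they lack its full-length and N isoforms. The WT animals were their littermates. The labels leave out the dose and duration of TGFβ1, which the study's text states for its cultures, and the age and sex of the mice. Nothing in them ties a library to a separate animal or culture, so that P values measure the spread between these libraries, part of which may be technical. No step that would purify the cells is described, so cells other than myofibroblasts could be present.

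Cytokines of the IL-6 family signal through the shared receptor subunit gp130, encoded by Il6st, together with a receptor of their own. IL-11 and LIF are made by activated fibroblasts, and TGFβ1 is a known inducer of both. Cytokines of the IL-1 family and TNF act through other receptors that activate NF-kB, and in an injured kidney they come from macrophages, tubular cells and fibroblasts. CSF1 keeps macrophages alive and dividing, and TSLP and IL-33 are alarm signals of epithelial and stromal cells.

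Totals lay between 47520759 and 73063697 counts per library, and a count of 0 allows at most 3 counts, or 0.0631 CPM (counts per 1000000 counts of a library) in the library of lowest total. Such limits cover counting error only. Wwp2 itself lay at 46.7 to 61.6 CPM in the 10 WT libraries and at 15.5 to 23.97 CPM in the 10 WWP2-/- libraries, so that every WWP2-/- library was lower than every WT library (exact permutation test, two-sided, P = 0.00794 without and with TGFβ1, the smallest that 5 against 5 allows). Of 9 known TGFβ1 response genes, 0 were called by edgeR's quasi-likelihood test in either genotype when treated cells were set against untreated ones, with 0 in WT and 1 in WWP2-/- cells at an unadjusted P of less than 0.05.

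Some libraries stood apart in ways that the groups do not account for. WWP2-/- untreated replicate 3 and WWP2-/- TGFβ1 replicate 1 had 39.7 and 49.0 CPM of Acta2, the myofibroblast actin, against at least 945 CPM in the other 18 libraries, and they are called the Acta2-low libraries here. Xist, transcribed from the inactive X chromosome of females, was above 1 CPM in 11 libraries, which were 4 WT untreated, 4 WT TGFβ1, 2 WWP2-/- untreated and 1 WWP2-/- TGFβ1. In 5 of the 11, Y-linked genes were also above 1 CPM. The fibroblast marker Pdgfra lay at 15.2 to 161 CPM in the 11 libraries with Xist and at 0.594 to 1.91 CPM in the 9 without it. Libraries grouped by Xist below are therefore also grouped by Pdgfra. Both were unevenly spread over the genotypes. The part of Pdgfra in the results was not tested, and that of Xist was tested only in the fits that are named.

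Levels of different genes were compared as CPM per kb of exon, with exons joined over all transcripts of a gene. Csf1 had the highest level of the 10 genes, at a mean of 170.6 CPM per kb over the 20 libraries. Il11 followed at 21.6, Lif at 7.36, Il33 at 4.70 and Il6 at 3.90 CPM per kb. Il1rn at 1.59, Tslp at 1.16, Il1a at 0.554, Tnf at 0.237 and Il1b at 0.128 CPM per kb were the lower part of the order. In 3 of the 4 groups the libraries of Csf1 all lay above those of the gene ranked after it. In WWP2-/- cells with TGFβ1 they did not, because Il11 reached 178 CPM per kb in a library of that group. Within each group the libraries of all other neighbours in the order overlapped, except Tslp above Tnf and Il1a above Il1b in WT cells with TGFβ1 and Tslp above Tnf in WWP2-/- cells with TGFβ1.

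**Figure D1:**
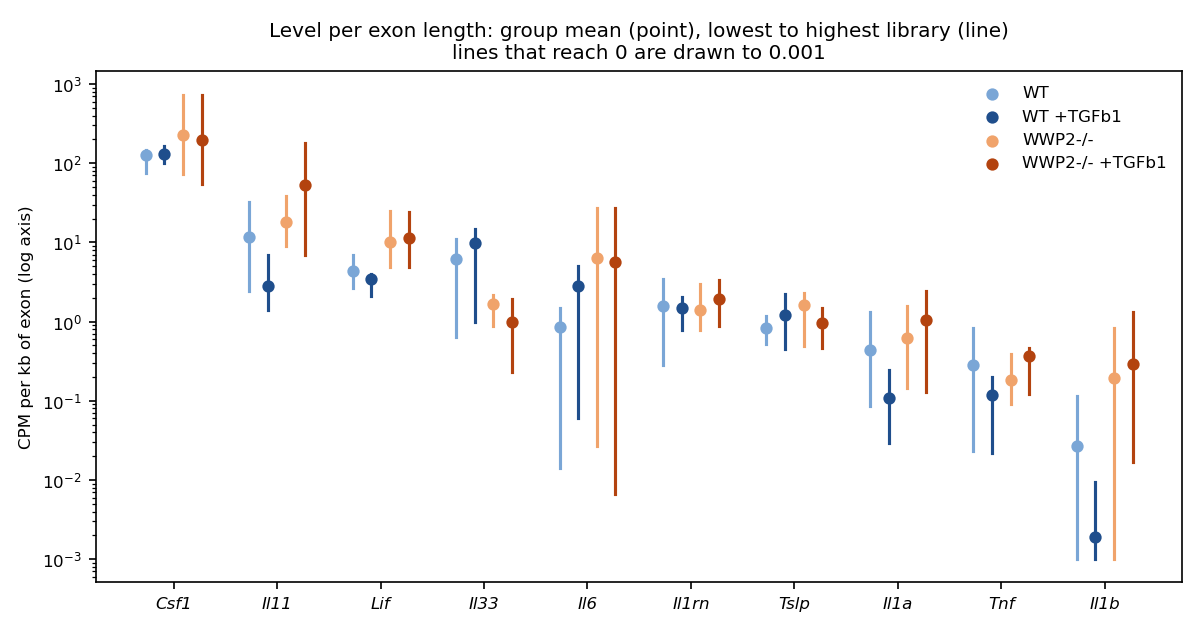
Level of the 10 cytokine genes in CPM per kb of exon on a log axis, with a point for the mean of the 5 libraries of each group and a line from the lowest to the highest library. Csf1 sits highest and Il1b lowest, and the long lines of Il6 and Il1b show how far libraries of 1 group lay apart.

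The position of Il33 in this order differed between groups. It had rank 2 of the 10 genes in WT cells with TGFβ1 at 9.97 ± 5.32 CPM per kb (SD, n = 5), and rank 7 in WWP2-/- cells with TGFβ1 at 0.982 ± 0.690. Il11 went from 2.85 ± 2.34 to 53.2 ± 72.1 CPM per kb between the same groups.

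Between genotypes in the presence of TGFβ1, Il11 and Il1a were higher and Il33 was lower in WWP2-/- cells, while the other 7 cytokine genes did not pass the test. The 3 called genes compare with 6.07% of all genes tested, of which 2.1% were called higher and 3.97% lower (edgeR quasi-likelihood test, adjusted P of less than 0.05). The log2 fold change was 4.27 for Il11 (SE 0.919, adjusted P = 0.0141), 3.18 for Il1a (SE 0.871, adjusted P = 0.0379) and -3.53 for Il33 (SE 0.749, adjusted P = 0.0138). Over the 10 genes the median log2 fold change was 1.20, or 0.92 without Il1b, against 0.05 over all genes. The value of 0.92 is that of Il6 itself (SE 1.73, adjusted P = 0.792). Without the Acta2-low libraries Il6 turned to -3.60 and Csf1 to -1.22, while Il11, Lif and Il1a stayed above 0. The median without those libraries was not computed. In bulk RNA, a change in the number of cells that make a transcript and a change in its amount per cell cannot be told apart.

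In untreated cells 0 of the 10 genes were called between genotypes, against 0.725% of all genes, 0.103% higher and 0.622% lower. The genes with an unadjusted P of less than 0.05 numbered 3, and the DESeq2 Wald test also called 0 of the 10. TGFβ1 against untreated cells gave 0 called cytokine genes in WT and in WWP2-/- cells, where 0% of all genes were called; 2 of the 10 had an unadjusted P of less than 0.05 in WT cells and 0 in WWP2-/- cells, and DESeq2 called 0 of them in both. In neither genotype were the treated libraries of a cytokine gene all above or all below the untreated ones, which held for 1.19% of all genes in WT and 0.421% in WWP2-/- cells. Over all genes, an unadjusted P of less than 0.05 was reached by 1397 in WT and by 713 in WWP2-/- cells, and DESeq2 called 27 and 44. The test of whether the TGFβ1 response differed between genotypes called 0 of the 10, with 4 at an unadjusted P of less than 0.05, and 0% of all genes, with 1424 at an unadjusted P of less than 0.05 and 10 by DESeq2.

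**Figure D2:**
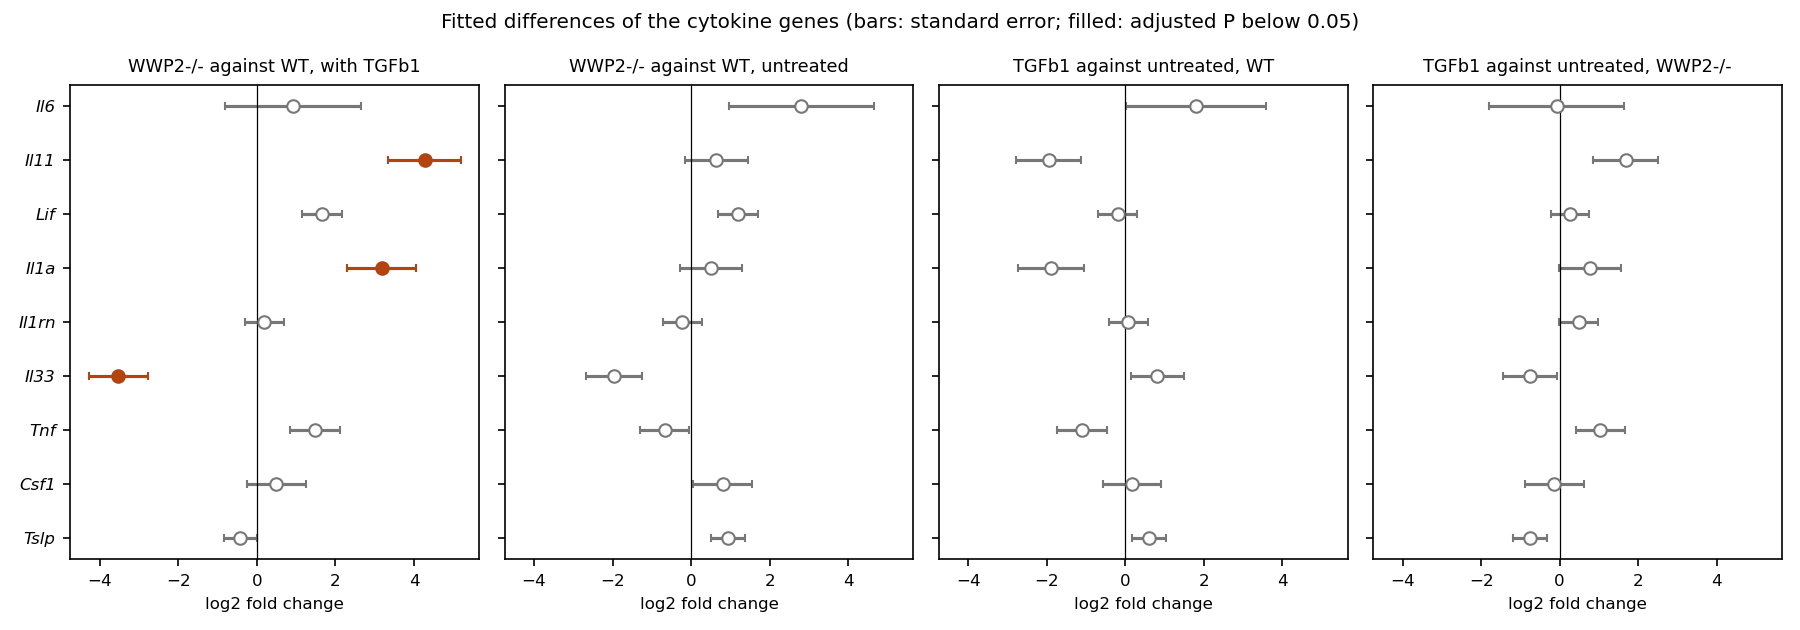
Log2 fold change with its standard error for 9 of the cytokine genes in 4 comparisons, with filled points for an adjusted P of less than 0.05. Il11, Il1a and Il33 are filled in WWP2-/- against WT cells with TGFβ1, and no point is filled elsewhere; Il1b is left out because its counts in WT cells with TGFβ1 were 0 or 1.

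Il11 encodes a gp130 cytokine that drives fibroblasts towards a myofibroblast state. In WT cells it lay at 17.4, 22.6, 5.12, 67.1 and 10.6 CPM without treatment and at 6.45, 3.005, 14.2, 2.96 and 2.98 CPM with TGFβ1. The WWP2-/- libraries had 80.6, 24.3, 36.7, 30.7 and 18.6 CPM without treatment and 43.7, 106, 371, 14.6 and 18.6 CPM with TGFβ1. Every treated WWP2-/- library was above every treated WT library, whereas the untreated groups overlapped (exact permutation test, two-sided, P = 0.00794 with TGFβ1 and P = 0.206 without). Groups that did not overlap were found for 5.53% of all genes in the treated comparison and for 2.82% in the untreated one.

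Without replicate 3 of the treated WWP2-/- cells, which had the highest Il11 level, the log2 fold change was 2.84 (adjusted P = 0.0318). Il11 stayed called when any 1 of the 10 treated libraries was left out and without the Acta2-low libraries (4.49, adjusted P = 0.0104), and it lost the call without the 5 libraries that held both Xist and Y-linked transcripts (4.31, adjusted P = 0.106) and in a fit of the treated groups alone (4.28, adjusted P = 0.0515). Among treated libraries without Xist, the single WT library had 14.2 CPM and the 4 WWP2-/- libraries 14.6 to 371 CPM. Among those with Xist, the 4 WT libraries had 2.96 to 6.45 CPM and the single WWP2-/- library, which is Acta2-low, 43.7 CPM.

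In WT cells Il11 was not higher with TGFβ1. Treated WT libraries had a mean of 5.92 ± 4.88 CPM and untreated ones 24.6 ± 24.7 CPM (SD, n = 5), and 3 treated libraries were below all untreated ones. The log2 fold change of -1.95 (SE 0.835) did not pass the test (adjusted P = 0.679), and the exact permutation test for this gene alone gave P = 0.0476. In WWP2-/- cells the log2 fold change was 1.68 (SE 0.823, adjusted P = 0.9999). The difference between these responses was 3.63 on the log2 scale (SE 1.17, adjusted P = 0.534).

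Lif encodes the ligand of the LIF receptor and, like Il11, signals through gp130. It lay at 20.3, 18.4, 11.5, 30.0 and 14.2 CPM in untreated WT cells and at 16.5, 15.3, 17.5, 9.28 and 17.2 CPM in treated ones. Levels in WWP2-/- cells were 39.5, 28.5, 108, 22.8 and 21.4 CPM without treatment and 106, 23.7, 71.8, 21.0 and 27.4 CPM with TGFβ1. The treated groups did not overlap (exact permutation test, two-sided, P = 0.00794), yet the log2 fold change of 1.66 (SE 0.507) missed the threshold of the test across all genes (adjusted P = 0.0586).

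The highest Lif levels of the series were 108 and 106 CPM in the Acta2-low libraries, against at most 71.8 CPM in the other 18. Without them the log2 fold change between treated genotypes was 1.18 (SE 0.360, adjusted P = 0.0348), a smaller difference with a smaller error. Lif also passed among genes with at least 10 counts in every library (1.66, adjusted P = 0.0494), by the DESeq2 Wald test (1.67, adjusted P = 0.0122), with Xist as a term in the fit (1.94, adjusted P = 0.0370) and with a macrophage score as a term (1.96, adjusted P = 0.0373). In 5 of these 10 other fits Lif did not pass. Among them were the replicate block (1.36, adjusted P = 0.117) and the fit without the libraries that held both Xist and Y-linked transcripts (1.68, adjusted P = 0.233). Nor did it pass in any of the 10 fits with 1 treated library left out (adjusted P = 0.0526 to 0.123). Between untreated genotypes the log2 fold change of Lif was 1.20 (SE 0.501, adjusted P = 0.279). TGFβ1 against untreated cells gave -0.20 (SE 0.495) in WT and 0.26 (SE 0.494) in WWP2-/- cells.

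The promoters of Il11 and Lif are shown because both genes stood higher in every treated WWP2-/- library; they were picked after these values were seen. The sequences are RefSeq's on GRCm38.p6 and end at the start site of the transcript or at the first annotated exon. The Il11 window is chr7:4778142-4778391 on the minus strand and the Lif window is chr11:4257318-4257556 on the plus strand. Capitals mark the AP-1 motif TGANTCA and the SMAD motif CAGAC, searched on both strands.

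Il11: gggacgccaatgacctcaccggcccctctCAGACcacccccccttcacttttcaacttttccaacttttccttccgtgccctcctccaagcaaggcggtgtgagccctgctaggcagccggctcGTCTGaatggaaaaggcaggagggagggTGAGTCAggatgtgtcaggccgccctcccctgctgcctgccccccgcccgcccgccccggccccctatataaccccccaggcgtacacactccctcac

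Lif: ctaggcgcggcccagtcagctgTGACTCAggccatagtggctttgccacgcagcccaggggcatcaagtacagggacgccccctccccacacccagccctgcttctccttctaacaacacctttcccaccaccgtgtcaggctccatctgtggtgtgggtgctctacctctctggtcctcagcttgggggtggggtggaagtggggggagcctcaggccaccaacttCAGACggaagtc

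The Il11 window held 1 AP-1 match, at position -98 from the start site, and 2 SMAD matches. The Lif window held 1 AP-1 match at -228 and 1 SMAD match at -23. Of 32851 RefSeq windows of 250 bases before a start site, 6.75% held the AP-1 motif and 42.2% the SMAD motif, and 1.55% held the CRE motif TGACGTCA, which neither window had. Il1b, whose treated groups did not overlap either, had a window with neither the AP-1 nor the SMAD motif. An AP-1 match was also present before Il1a, at -12, and in a window of Il1rn, at -141. Il1rn was not called between treated genotypes. A match says only that the letters are there. Il11 has another annotated start upstream, and the window before that start held 2 SMAD matches and 0 AP-1 matches. The Il11 window shown was chosen over that window because it held the AP-1 match. The 6.75% of all windows is therefore no measure of how unusual this match is.

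AP-1 factors include Jun and Fos. Of 9 AP-1 and immediate early genes, 1 was called between treated genotypes, against 6.07% of all genes. This was Jun, which was higher in WWP2-/- cells by 1.05 on the log2 scale (SE 0.217, adjusted P = 0.0129). Jun lay at 39.8 to 82.6 CPM in treated WT libraries and at 106 to 163 CPM in treated WWP2-/- libraries, without overlap, as held for 5.53% of all genes. The median log2 fold change of the 9 genes was 0.49, with 7 of them above 0. Fos was lower, at -1.1 (SE 0.477, adjusted P = 0.160), and was not called. In the other comparisons 0 of the 9 were called.

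Il6 encodes interleukin 6, which drives the acute phase response and acts on cells that carry its receptor Il6ra. In untreated WT cells it lay at 2.37, 1.93, 3.65, 0.0339 and 2.42 CPM, and in treated WT cells at 7.59, 12.2, 0.147, 2.65 and 11.2 CPM. In untreated WWP2-/- cells it lay at 10.4, 0.0647, 65.3, 0.440 and 0.303 CPM, and in treated ones at 66.3, 0.424, 1.78, 0.0771 and 0.0163 CPM. Within a single group Il6 thus covered from 0.0163 to 66.3 CPM, and no comparison passed the test.

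Il6 went with features of the libraries that the groups share unevenly. The Acta2-low libraries had 65.3 and 66.3 CPM against at most 12.2 CPM in the other 18. All 11 libraries with Xist had 1.93 to 66.3 CPM and all 9 without it 0.0163 to 1.78 CPM. The log2 fold change between treated genotypes was 0.92 (SE 1.73, adjusted P = 0.792), and it was -3.60 (SE 1.57, adjusted P = 0.120) without the Acta2-low libraries and 2.79 (SE 0.810, adjusted P = 0.0584) with Xist as a term in the fit. Between untreated genotypes it was 2.80 (SE 1.84, adjusted P = 0.487), and with the Xist term it was 3.66 (SE 0.788) and passed the test (adjusted P = 0.0490). The only untreated WWP2-/- libraries with Xist were replicate 3, which is Acta2-low, at 65.3 CPM, and replicate 1 at 10.4 CPM. Replicate 1 also held Y-linked transcripts.

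Csf1, the growth factor of macrophages, showed the same libraries at the top. It lay at 709, 661, 758, 400 and 782 CPM in untreated WT cells and at 687, 867, 524, 753 and 648 CPM in treated ones. WWP2-/- cells had 975, 428, 3784, 424 and 390.1 CPM without treatment and at 3888, 369, 315, 285 and 367 CPM with TGFβ1. Apart from replicate 1, all treated WWP2-/- libraries were below all treated WT libraries. The log2 fold change between treated genotypes was 0.49 (SE 0.747, adjusted P = 0.735), and without the Acta2-low libraries it was -1.22 (SE 0.285) and passed the test (adjusted P = 0.0132). Csf1 also went with Xist, at 648 to 3888 CPM in the 11 libraries with it and at 285 to 524 CPM in the 9 without it.

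The promoters of Il6 and Csf1 are shown, by a choice made after the values were seen, as examples of genes that were highest in the Acta2-low libraries. Lif, Il1a and Il1b were highest there too. The Il6 window is chr5:30012864-30013113 on the plus strand and the Csf1 window is chr3:107760470-107760719 on the minus strand. Capitals mark the AP-1 motif and an NF-kB motif, read on either strand.

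Il6: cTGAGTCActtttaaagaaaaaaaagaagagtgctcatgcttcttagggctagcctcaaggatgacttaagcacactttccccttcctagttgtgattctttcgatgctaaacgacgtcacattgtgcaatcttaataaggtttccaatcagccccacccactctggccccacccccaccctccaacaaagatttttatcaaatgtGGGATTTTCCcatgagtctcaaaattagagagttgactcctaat

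Csf1: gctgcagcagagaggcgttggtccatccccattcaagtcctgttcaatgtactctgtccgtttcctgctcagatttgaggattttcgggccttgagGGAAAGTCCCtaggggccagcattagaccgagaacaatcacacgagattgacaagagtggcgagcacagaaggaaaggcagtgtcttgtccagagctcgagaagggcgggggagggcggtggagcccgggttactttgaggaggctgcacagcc

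The Il6 window held an NF-kB match at position -44 and an AP-1 match at -249, and the Csf1 window held an NF-kB match at -154. This NF-kB motif, with 1 free position, was present in 0.356% of the 32851 windows. The windows of Il11, Lif, Il1a and Il1b had no match to it, so that the 2 windows shown here are those with a match among the genes that were highest in the Acta2-low libraries.

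**Figure D3:**
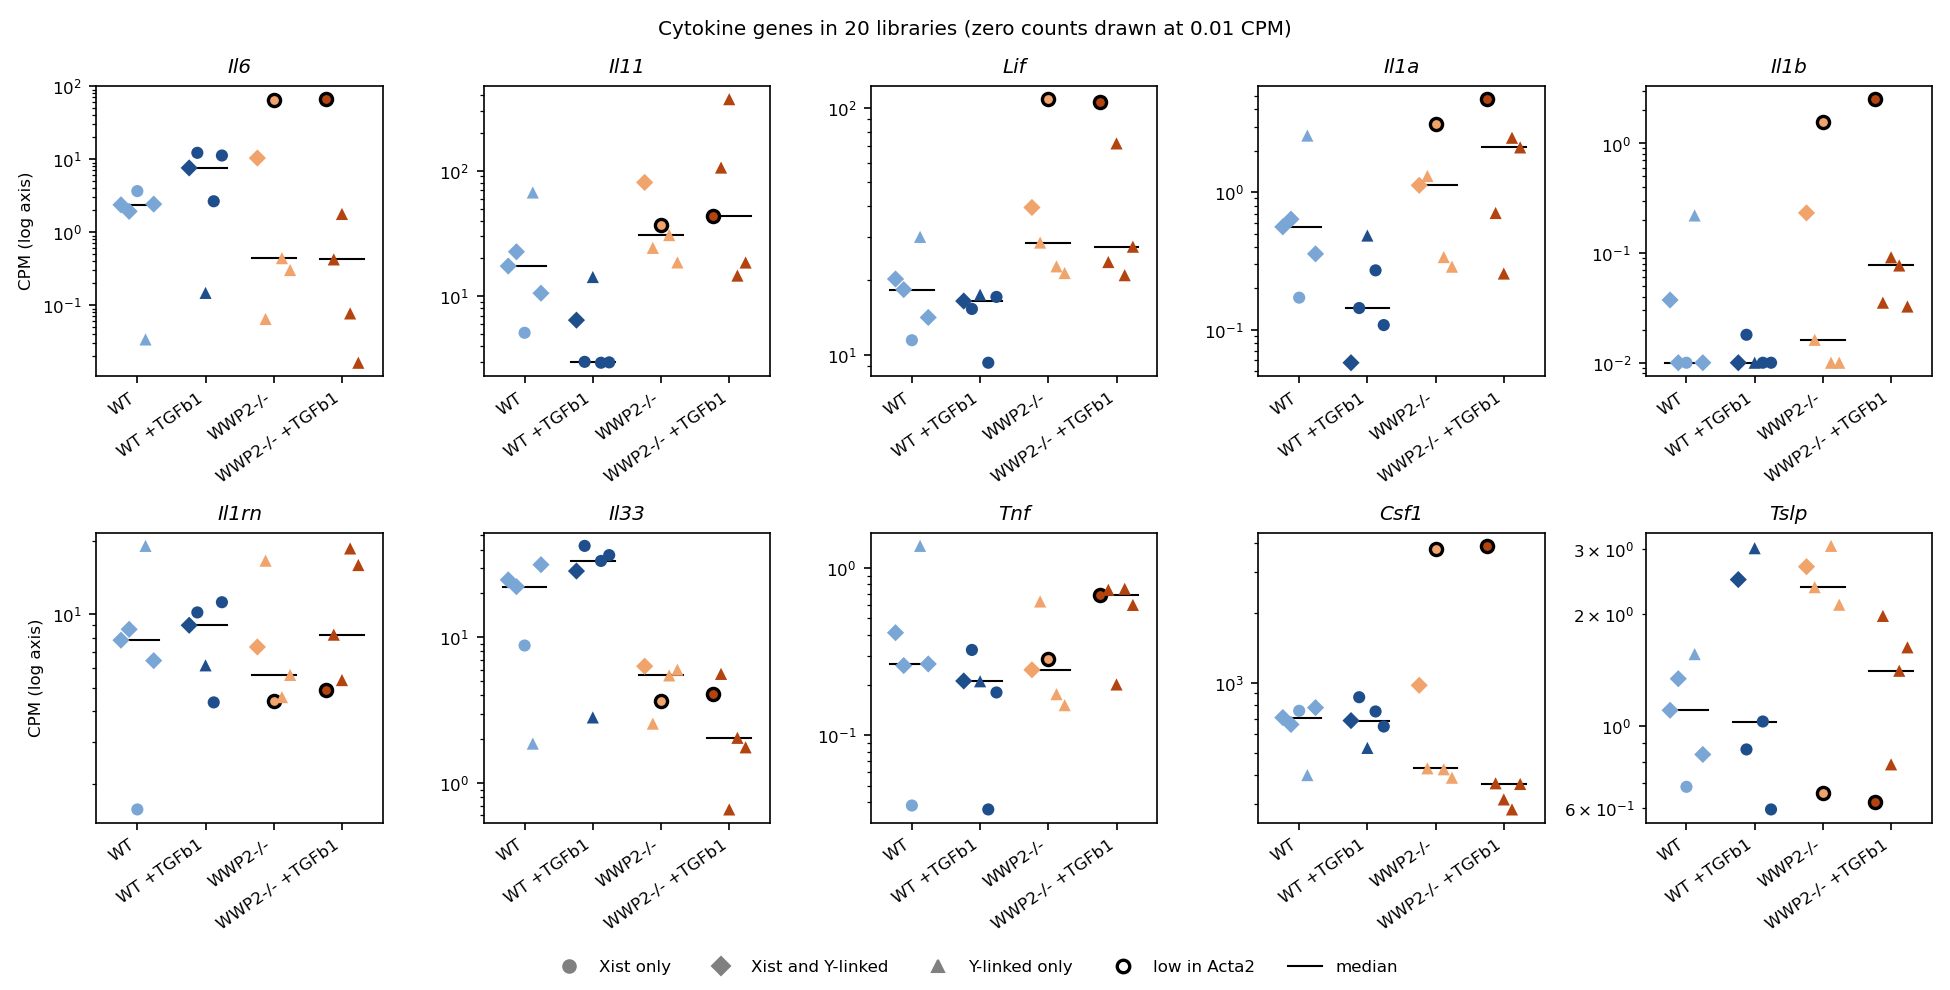
CPM of each cytokine gene in the 20 libraries on log axes, with the median of each group as a line, symbols for the presence of Xist and Y-linked transcripts, and a black ring around the Acta2-low libraries. The ringed libraries are the highest of the series for Il6, Lif, Il1a, Il1b and Csf1, and triangles, which lack Xist, are low in Il6 and Il33.

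Il33 encodes a nuclear alarm cytokine that signals through the receptor ST2, encoded by Il1rl1. It lay at 24.8, 22.3, 8.79, 1.87 and 31.5 CPM in untreated WT cells and at 28.5, 42.4, 2.82, 33.4 and 36.7 CPM in treated ones. The WWP2-/- cells had 6.34, 2.56, 3.68, 5.48 and 5.99 CPM without treatment and 4.10, 5.61, 0.659, 2.04 and 1.76 CPM with TGFβ1. In each condition 1 WT library lay within or below the range of the WWP2-/- libraries and the others lay above it. The difference between untreated genotypes was -1.96 on the log2 scale (SE 0.702, adjusted P = 0.213). TGFβ1 against untreated cells gave 0.82 (SE 0.681, adjusted P = 0.904) in WT and -0.75 (SE 0.686, adjusted P = 0.9999) in WWP2-/- cells.

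The low WT libraries of Il33 were the WT libraries without Xist. Those 2 had 1.87 and 2.82 CPM, and the 7 WWP2-/- libraries without Xist had 0.659 to 5.99 CPM. With Xist, the 8 WT libraries had 8.79 to 42.4 CPM and the 3 WWP2-/- libraries 3.68 to 6.34 CPM, so that the genotypes did not overlap there. Of these 3, 2 were the Acta2-low libraries, and untreated replicate 1 held both Xist and Y-linked transcripts. The share of all genes without overlap in this split was not counted. With Xist as a term in the fit the difference between treated genotypes was -2.19 and no longer called (SE 0.851, adjusted P = 0.132). Without the 5 libraries that held both Xist and Y-linked transcripts it was -3.55 and not called either (adjusted P = 0.0895). Il33 was called when any 1 treated library was left out.

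Il1rl1 lay at 3.59 to 10.4 CPM in treated WT libraries and at 10.02 to 423 CPM in treated WWP2-/- libraries, with a log2 fold change of 3.77 (SE 1.22, adjusted P = 0.0695). Its 2 highest values of the series, 270.1 and 423 CPM, were in the Acta2-low libraries.

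Il1a encodes interleukin 1 alpha, which activates neighbouring cells when released from dying ones. It lay at 0.560, 0.637, 0.171, 2.58 and 0.356 CPM in untreated WT cells and at 0.0576, 0.144, 0.484, 0.270 and 0.108 CPM in treated ones, the latter from 3 to 23 counts. In WWP2-/- cells it lay at 1.12, 1.31, 3.12, 0.338 and 0.288 CPM without treatment and at 4.74, 0.706, 0.256, 2.49 and 2.12 CPM with TGFβ1. Apart from replicate 3, all treated WWP2-/- libraries were above all treated WT libraries (exact permutation test, two-sided, P = 0.0238).

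The Il1a call was not stable. Leaving out 1 treated library took it away in 7 of 10 cases, with adjusted P between 0.0231 and 0.0970 over the 10. The treated library whose loss gave the smallest difference was WWP2-/- replicate 1 (2.52, adjusted P = 0.0602). The call was also lost in 6 of 8 other fits planned for it, where the difference stayed at 2.94 to 3.30 against 3.18 as reported and the adjusted P lay between 0.0509 and 0.199. Without the Acta2-low libraries it was 2.52 on the log2 scale (SE 0.773, adjusted P = 0.0355).

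Il1b, which encodes interleukin 1 beta, the product of the inflammasome, was at or near the limit of detection. The 5 untreated WT libraries held 2, 0, 0, 13 and 0 counts and the 5 treated ones 0, 1, 0, 0 and 0. Untreated WWP2-/- libraries held 17, 1, 77, 0 and 0 counts and treated ones 155, 2, 5, 4 and 2. The Acta2-low libraries held 77 and 155 counts, and of the other 18 none had more than 17. Treated genotypes did not overlap (exact permutation test, two-sided, P = 0.00794), but the test across all genes did not call Il1b (adjusted P = 0.0762), and no fold is given against a group of 0 and 1 counts.

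Il1rn encodes the antagonist of the IL-1 receptor. Its level lay at 1.58 to 19.1 CPM in untreated WT, 4.34 to 11.2 in treated WT, 4.40 to 16.6 in untreated WWP2-/- and 4.87 to 18.6 in treated WWP2-/- libraries. The log2 fold change between treated genotypes was 0.19 (SE 0.498, adjusted P = 0.854), and all groups overlapped. Tnf, the founding member of its cytokine family, lay at 0.0381 to 1.36 CPM in untreated WT and at 0.0361 to 0.324 CPM in treated WT libraries, the latter from 2 to 18 counts. In WWP2-/- cells it lay at 0.151 to 0.631 CPM without treatment and at 0.201 to 0.752 CPM with TGFβ1. Between treated genotypes 4 of 5 WWP2-/- libraries were above all WT libraries, with a log2 fold change of 1.48 that was not called (SE 0.638, adjusted P = 0.160).

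Macrophage markers varied widely between the libraries. The summed level of 12 markers, among them Ptprc, Cd68, Adgre1 and the complement genes C1qa to C1qc, ranged from 157 to 4588 CPM in untreated WT, 75.8 to 509 CPM in treated WT, 97.3 to 2167 CPM in untreated WWP2-/- and 90.5 to 4027 CPM in treated WWP2-/- libraries. Between treated genotypes all 12 had a log2 fold change above 0 in WWP2-/- cells, at a median of 2.52; 12 had an unadjusted P of less than 0.05 and 0 were called. With TGFβ1 in WT cells all 12 had one below 0, at a median of -2.48, with 11 at an unadjusted P of less than 0.05 and 0 called, and the median of their interactions was 3.39. In that WT comparison Il11 had -1.95 and Il1a -1.88 (adjusted P = 0.702), and with a macrophage score as a term they had -1.71 (adjusted P = 0.785) and -1.63 (adjusted P = 0.778). No marker of the 12 was at 0 in all libraries, and 4 T cell markers were at or near 0 throughout.

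The 4 libraries of highest macrophage sum were WT untreated replicate 4, WWP2-/- TGFβ1 replicates 4 and 5, and WWP2-/- untreated replicate 2. All 4 were without Xist. They held the 4 highest levels of Il1rn, 15.9 to 19.1 CPM against at most 11.2 CPM in the other 16. Their Tnf lay at 0.602 to 1.36 CPM, against 0.0361 to 0.741 CPM in the others, and their Il1a at 1.31 to 2.58 CPM, against 0.0576 to 4.74 CPM. Their Il6 was the lowest of the series, at 0.0163 to 0.0771 CPM against at least 0.147 CPM in the others. The Acta2-low libraries had low macrophage sums of 97.3 and 90.5 CPM and the 2 highest levels of Il1a. Which cells made Il1a was not tested. With a macrophage score as a term in the fit, the log2 fold change between treated genotypes was 4.24 for Il11 (adjusted P = 0.0304), 3.07 for Il1a (adjusted P = 0.0669) and -2.88 for Il33 (adjusted P = 0.0933).

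**Figure D4:**
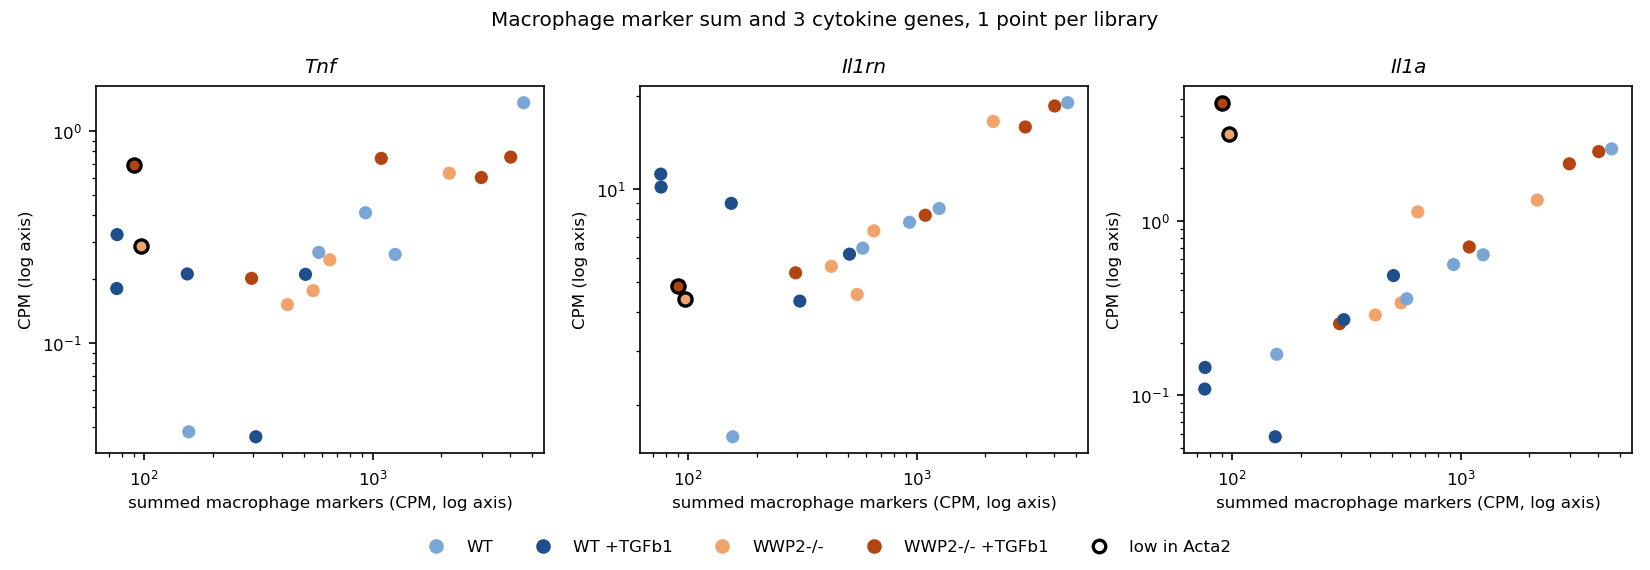
Level of Tnf, Il1rn and Il1a in each of 20 libraries against the summed level of 12 macrophage markers, both in CPM on log axes. The 4 libraries with sums of 2167 to 4588 CPM hold the highest Il1rn, and the ringed Acta2-low libraries lie at low sums with the highest Il1a.

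Tslp, the cytokine that acts through Crlf2 and Il7r, lay at 0.685 to 1.56 CPM in untreated WT and at 0.595 to 3.01 CPM in treated WT libraries. It lay at 0.658 to 3.05 CPM in untreated and at 0.621 to 1.98 CPM in treated WWP2-/- libraries. The log2 fold change was 0.93 between untreated genotypes (SE 0.430, adjusted P = 0.322) and -0.42 between treated ones (SE 0.428, adjusted P = 0.589). The Acta2-low libraries, at 0.658 and 0.621 CPM, were the lowest of their groups.

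Of 13 IL-6 family receptor and signalling genes, 2 were called lower and 0 higher in treated WWP2-/- than in treated WT cells, where 3.97% of all genes were called lower. Il6ra, the receptor of interleukin 6, fell by 1.20 on the log2 scale (SE 0.291, adjusted P = 0.0228), from 17.2 to 22.3 CPM in treated WT to 4.98 to 17.5 CPM in treated WWP2-/- libraries. Il6st, the gp130 subunit that Il6, Il11 and Lif share, fell by 1.04 (SE 0.249, adjusted P = 0.0223), from 452 to 737 CPM to 256 to 419 CPM, without overlap. Il11ra1, the receptor of IL-11, had a log2 fold change of -0.85 (SE 0.256, adjusted P = 0.0563) and Lifr one of -0.78 (SE 0.322, adjusted P = 0.144). Neither was called, nor were Osmr and Cntfr. The median of the 13 genes was -0.33.

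Of 15 TNF pathway genes, 2 were called lower and 0 higher between treated genotypes, against the same 3.97% lower of all genes, and both were TNF receptors. Tnfrsf1a had a log2 fold change of -0.67 (SE 0.158, adjusted P = 0.0206) and Tnfrsf1b one of -0.48 (SE 0.0803, adjusted P = 0.00639). The median of the 15 genes was 0.12. Tnfrsf1b lay at 81.3 to 107 CPM in treated WT and at 70.6 to 84.4 CPM in treated WWP2-/- libraries.

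Among 14 other IL-1 family genes, 0 were called between treated genotypes, with 6 at an unadjusted P of less than 0.05 and a median of 0.38. Il1r1, which binds both forms of interleukin 1, had a log2 fold change of -0.03 (SE 0.536). Among 6 other IL-6 family ligands tested, 1 was called higher, namely Ebi3, a subunit of interleukin 27, at 1 to 3 counts in treated WT and 1 to 33 counts in treated WWP2-/- libraries (adjusted P = 0.0440). Their median was 1.34, and 2.1% of all genes were called higher.

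Of 9 genes of the CSF and TSLP axes, 1 was called between treated genotypes, against 6.07% of all genes. This was Il7, a growth factor of lymphocytes, which was higher in WWP2-/- cells by 1.36 on the log2 scale (SE 0.309, adjusted P = 0.0171), with 2.001 to 5.24 CPM in treated WT and 4.94 to 11.7 CPM in treated WWP2-/- libraries. Csf1r, the receptor of CSF1 and also a macrophage marker, had 1.59 (SE 0.583, adjusted P = 0.103), Il7r 3.34 (SE 1.08, adjusted P = 0.0706) and Crlf2 -0.07 (SE 0.163, adjusted P = 0.833). Of the 66 genes tested from these 6 lists, AP-1 included, edgeR called 0 in the other comparisons, where an unadjusted P of less than 0.05 was reached by 12 between untreated genotypes, 14 in response to TGFβ1 in WT cells and 2 in WWP2-/- cells.

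Among the 9 TGFβ1 response genes, 2 were called lower in treated WWP2-/- than in treated WT cells, where 3.97% of all genes were called lower. Postn, the matrix protein periostin, had a log2 fold change of -2.44 (SE 0.678, adjusted P = 0.0407) and Col1a1, a chain of collagen type I, one of -1.98 (SE 0.580, adjusted P = 0.0492).

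The genes whose pattern over the 20 libraries was most like that of a cytokine gene were found by Pearson's r of log2(CPM + 2), among 13534 genes with a mean of at least 1 CPM. For Il6 it was Ccl7 (r = 0.975), followed by Apol9a and Cfb, and for Csf1 it was Cept1 (r = 0.972), with Stambpl1 and Fgf7. For Il11 it was Mllt11 (r = 0.923), with Slc20a1 and Rabep1, and for Lif it was Fam78b (r = 0.961), with Nabp1 and Rhbdd1. For Il33 it was Mras (r = 0.969), with Gabra3 and Rhoj, for Il1a Evi2a (r = 0.969), for Il1rn Kcnj2 (r = 0.864) and for Tslp Ica1l (r = 0.929). These values describe libraries that share groups, Xist status and, in 2 cases, the low Acta2 level, and they carry no test.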

How the data were processed

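Poly-A RNA of primary renal myofibroblasts was sequenced in 20 libraries, 5 in each of 4 groups taken from the sample titles. The values are counts, which the authors made by aligning paired-end reads to GRCm38 (mm10) with STAR and counting them on exons with featureCounts, and deposited without normalization. Tool versions are not given in the sources used here.

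Gene symbols, positions and exon lengths were taken from GENCODE M21 on GRCm38, which named 51633 of 51826 genes. Counts were analysed in R 4.3.3 with edgeR 4.0.16. A gene entered the test if 5 or more libraries had 5 or more of its counts, as 20407 genes did, with 99.984% of all counts. Counts were TMM-normalized, the 20 libraries were fitted with 4 groups by glmQLFit, and contrasts were tested by glmQLFTest with Benjamini–Hochberg adjustment over all genes tested (adjusted P of less than 0.05). A standard error is the size of the log2 fold change divided by the square root of F. Single genes were tested by an exact two-sided permutation test of mean log2(CPM + 1), 5 against 5 (252 arrangements, SciPy 1.17.1). CPM used library totals. The fits were tested on simulated data. The count test replaced the study's DESeq2, which served as an alternative in version 1.42.0.

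The other settings tried were no filter, size factors as DESeq2 computes them, at least 10 counts in every library, an adjusted P of less than 0.01, a replicate block, only the groups compared, Xist or a macrophage score as a covariate, leaving out the libraries with both Xist and Y-linked transcripts, and leaving out each library in turn. Leaving out the Acta2-low libraries was chosen after seeing the data.

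The cytokine genes, pathway lists and marker lists were chosen with earlier results of these data known. Genes named are the cytokines, Wwp2, their receptors, at most 2 called genes per list and comparison, and the 3 genes most like each cytokine. The promoter windows were to be those of genes called in a TGFβ1 comparison; those shown were picked later. The result of 1 gene of the TGFβ1 response list is not reported here.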

Additional observations from a re-analysis of the deposited data

Results flagged for a closer look

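In each group of 5 libraries the highest and lowest level of every cytokine gene was compared with its nearest neighbour, and the gap divided by the range was set against Dixon's critical value of 0.71. In 40 groups 17 levels passed it. The value flags about 1 in 20 groups of normally distributed levels. That spread was not tested for CPM, and the genes share the same libraries, so the rate by chance is not known here.

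Of these, 7 were the Acta2-low libraries, the highest of their groups by far. WWP2-/- untreated replicate 3 stood apart in Il6 at 65.3 CPM, Lif at 108 CPM, Il1b at 1.58 CPM and Csf1 at 3784 CPM. WWP2-/- TGFβ1 replicate 1 did so in Il6 at 66.3 CPM, Il1b at 2.53 CPM and Csf1 at 3888 CPM. Their closest neighbours in those groups were at 10.4, 39.5, 0.233 and 975 CPM and at 1.78, 0.0915 and 369 CPM.

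WT untreated replicate 4, the library with the highest macrophage marker sum of 4588 CPM and without Xist, was the highest of its group in Il11 at 67.1 CPM, Il1a at 2.58 CPM, Il1b at 0.220 CPM and Tnf at 1.36 CPM. WWP2-/- untreated replicate 2, with a macrophage sum of 2167 CPM, was the highest of its group in Il1rn at 16.6 CPM and Tnf at 0.631 CPM. WWP2-/- TGFβ1 replicate 3, with a macrophage sum of 295 CPM, had the highest Il11 of the series at 371 CPM and the lowest Tnf of its group at 0.201 CPM.

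The other 2 were the lowest Lif of the treated WT cells, 9.28 CPM in replicate 4, and the single Il1b count of that group, 0.0180 CPM in replicate 2. That Il1b count passes in any case, because the other libraries of its group had 0 counts.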

How the results depend on the processing

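The 3 cytokine genes called between treated genotypes became 5 by DESeq2, 5 without the Acta2-low libraries, 1 with only the groups compared, 0 at an adjusted P of less than 0.01 and 0 without the 5 libraries with both Xist and Y-linked transcripts, and 2 to 3 with 1 library left out. Between untreated genotypes 0 became 1 with Xist as a covariate, and the counts of 0 in the other comparisons did not move. Over all genes the 1239 calls between treated genotypes were 2672 by DESeq2, 3480 without the Acta2-low libraries, 790 without a filter, 779 with Xist and 494 with the macrophage score as covariate, 534 with only the groups compared, 101 at the stricter threshold and 2 without the mixed libraries. The labels tie no replicate number to an animal or day, and not every same-numbered pair correlated above 0.1. Correlations of same-numbered deviations ran from -0.532 to 0.532 between WT groups, -0.251 to 0.327 between WWP2-/- groups, -0.503 to 0.166 between treated genotypes and -0.00854 to 0.454 between untreated ones, and 1, 0, 1 and 4 of 5 libraries matched their own number best. The 4 matches between untreated genotypes are a hint from the data that these numbers may be shared. With the replicate block 2 cytokine genes and 670 genes in all were called between treated genotypes, and 0 and 1 between untreated ones, where the calls over all genes were 148 as reported, 747 by DESeq2 and 726 with the macrophage score. Of 50 log2 fold changes 18 changed sign under at least 1 alternative. With the macrophage score those of TGFβ1 in WT cells were -2.63 for Il6 and -1.07 for Csf1, that of Il1rn was -0.91 between treated and 0.10 between untreated genotypes, and the interactions were 1.38 for Il6, -1.01 for Il1rn and 1.002 for Csf1. With Xist as a covariate Il6 had 0.81 for TGFβ1 in WWP2-/- cells and Il1rn -0.41 between treated genotypes. The block gave -3.21 for Il6 and -0.35 for Csf1 between treated genotypes. Without the Acta2-low libraries Il6 had -3.60 and Csf1 -1.22 there, and Il1a -0.23 and Csf1 -0.38 between untreated genotypes. Without the mixed libraries Il11 had -0.34 and Il1a -0.081 between untreated genotypes and Il1rn -0.14 for TGFβ1 in WT cells. With 1 library left out the log2 fold changes that changed sign ranged as follows. For TGFβ1 in WT cells it was Il1rn, -0.19 to 0.51. For TGFβ1 in WWP2-/- cells they were Il6, -4.58 to 2.44, Lif, -0.19 to 0.96, and Csf1, -1.82 to 1.03. Between treated genotypes they were Il6, -3.63 to 1.25, Il1rn, -0.11 to 0.35, and Csf1, -1.24 to 0.74, and between untreated ones Il1a, -0.22 to 1.39, Il1rn, -0.70 to 0.19, Tnf, -1.12 to 0.14, and Csf1, -0.37 to 0.99. The interactions were Il6, -6.37 to 0.65, Lif, -0.00098 to 1.15, Il1rn, -0.014 to 0.89, and Csf1, -1.99 to 0.86. An Acta2-low library gave the lowest or highest value for Il6, Lif and Csf1 in all but the highest value of Il6 and Csf1 between treated genotypes and of Csf1 between untreated ones. The order of levels by medians put Il1rn at 5, Tslp at 6 and Il6 at 7. The causes were not tested. The depth limits Il1b, with at most 3 counts in 14 of 20 libraries.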

Other observations

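Markers of other kidney cells were present at lower levels than those of fibroblasts. The summed level of 5 endothelial markers ranged from 4.54 to 176 CPM over the libraries, and Kdr, a receptor of vascular endothelial growth factor, was called lower in treated WWP2-/- than in treated WT cells (log2 fold change -1.76, SE 0.473, adjusted P = 0.0351). The other 4, Pecam1, Cdh5, Emcn and Tie1, had 0.40 to 0.90 and were not called, and the median of the 5 was 0.66. The summed level of 8 tubular epithelial markers ranged from 11.7 to 798 CPM; 0 of the 7 tested were called between treated genotypes by edgeR, with 1 at an unadjusted P of less than 0.05, and all 7 had a log2 fold change above 0, at a median of 2.16. Of 11 fibroblast and myofibroblast markers, 2 were called lower in treated WWP2-/- cells, Col1a1 and Col1a2, where 3.97% of all genes were called lower. The summed level of the 11 markers ranged from 4423 to 31790 CPM. The Acta2-low libraries had the lowest sums of the series for endothelial, tubular and fibroblast markers, and fibroblast sums of 4423 and 5168 CPM. Acta2 is among the 11 fibroblast and myofibroblast markers, so that this low sum follows in part from how the libraries were defined. The sum without Acta2 was not computed. Of the other markers, Col1a1 lay at 718 and 863 CPM in these libraries and Pdgfra at 95.4 and 102 CPM.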
